A study of Homo sapiens with 6 samples.

Results

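The E2F and DP transcription factors are the 10 genes E2F1 to E2F8, TFDP1 and TFDP2, taken by symbol from the 18118 genes of the SU-CCS-1 counts, and all 10 were found there. SU-CCS-1 is an established human cell line from clear cell sarcoma, a soft tissue tumor driven by the fusion EWSR1::ATF1 (EA1), which joins a part of EWSR1 to the DNA-binding domain of ATF1. Transfection used 5 pmol of siRNA for 48 h, either a negative control or one of a pair directed at EA1, here called siRNA 1 and siRNA 2. The study's methods describe a single siRNA against EA1 and the labels a pair, so that amount and time were taken to hold for both. Each of these 3 groups had 2 RNA-seq libraries (6 in all), and the cells of every library were of this one line, carried the fusion and were transfected. The comparison asks how lowering EA1 changed the expression of these genes. Nothing in the labels says that the replicates came from separate cultures, so the p-values measure only the spread between these libraries, which may be technical.

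E2F proteins bind a GC-rich element near the start of genes needed to enter and pass through S phase. E2F1 to E2F6 bind it as dimers with a DP partner, the product of TFDP1 or TFDP2. Pocket proteins (RB1, RBL1 and RBL2) hold E2F1 to E2F5 in check until cyclin-dependent kinases release them. E2F1, E2F2 and E2F3 are known as activators, E2F4 and E2F5 act mostly as repressors with RBL1 and RBL2, and E2F6 represses without a pocket protein. E2F7 and E2F8 are called atypical because each carries a pair of DNA-binding domains, needs no DP partner and represses E2F target genes in S phase. Several E2F genes are E2F targets themselves.

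The total count per library was 5942808 to 7599305, so that 3 counts, the limit that a count of 0 allows, correspond to 0.395 to 0.505 CPM (counts scaled to the size of the library), and such limits cover counting error only. ATF1, whose 3′ part lies in the fusion transcript, was at 82.0 and 87.2 CPM with control siRNA, 21.1 and 20.2 CPM with siRNA 1, and 21.7 and 22.3 CPM with siRNA 2. Its log2 fold change (log2FC, knockdown minus control) was -2.03 and -1.94. Gene counts do not separate the fusion from wild-type ATF1. EWSR1, at 197 and 233 CPM in the control libraries, did not pass the test (averaged log2FC -0.08). Of the markers checked, all 8 melanocytic markers were in the table, with a summed level of 2971 to 3168 CPM with control siRNA, 8659 to 8675 CPM with siRNA 1 and 7647 to 12178 CPM with siRNA 2. PMEL had the highest level of them, with means of 1217, 4834 and 5992 CPM with control siRNA, siRNA 1 and siRNA 2. MITF, PMEL, MLANA, S100B, TYR and DCT rose with each siRNA. SOX10 passed with neither (averaged log2FC 0.16), and ERBB3 did not pass with siRNA 2 (edgeR adjusted p = 0.0742). MLANA had 4 and 0 counts in the control libraries. None of the 3 skeletal muscle markers was in the table, 2 of 5 fibroblast markers were (summed 2.69 to 3.44 CPM with control siRNA, 8.87 to 11.9 CPM with siRNA 1 and 12.9 to 22.9 CPM with siRNA 2, of which LUM rose with an averaged log2FC of 3.05), and 1 of 3 leukocyte markers was (0 to 0.896 CPM). The part of these differences in the results was not tested.

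The stretches before the start are shown for the members that were lower in every knockdown library and have an entry. E2F3, which carries the same element, is shown as well. They show where the exact letters of an E2F element given below occur, and looser or more distant elements were not searched for. RefSeq promoter windows on GRCh38.p14, from 250 bases before the start to 50 after it, were matched for 8 of the 10 genes (11 windows). E2F5 and E2F8 had no entry. Each sequence below runs 5′ to 3′ on the gene's strand and ends 1 base before the RefSeq start, except that of TFDP1, which ends 40 bases before it. Capitals mark an E2F element (TTTCGCGC, TTTGGCGC, TTTCCCGC or TTTGCCGC, on either strand) or TGACG, the core of the cAMP response element to which ATF1 binds, also on either strand.
E2F1, chr20:33686386-33686505, minus strand: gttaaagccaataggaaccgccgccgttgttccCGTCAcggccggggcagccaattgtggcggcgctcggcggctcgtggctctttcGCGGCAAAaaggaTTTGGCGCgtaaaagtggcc
E2F2, chr1:23531234-23531353, minus strand: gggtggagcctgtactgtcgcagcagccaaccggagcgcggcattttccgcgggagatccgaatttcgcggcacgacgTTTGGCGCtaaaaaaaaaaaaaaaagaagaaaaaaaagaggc
E2F3, chr6:20401759-20401878, plus strand: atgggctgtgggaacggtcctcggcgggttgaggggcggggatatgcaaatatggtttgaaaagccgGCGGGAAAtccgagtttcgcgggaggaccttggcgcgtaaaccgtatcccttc
TFDP1, chr13:113584603-113584713, plus strand: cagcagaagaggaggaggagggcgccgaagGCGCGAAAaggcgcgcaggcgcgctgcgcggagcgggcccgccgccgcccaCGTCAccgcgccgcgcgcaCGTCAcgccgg
E2F7, chr12:77065570-77065689, minus strand: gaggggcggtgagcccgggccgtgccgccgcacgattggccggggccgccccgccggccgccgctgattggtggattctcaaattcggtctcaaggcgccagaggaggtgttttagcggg

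An E2F element was found in the windows of 4 of the 8 genes with an entry, E2F1, E2F2, E2F3 and TFDP1, and in 3.99% of the 27305 genes with windows of this length (3.31% of 35116 windows). E2F1 had an element 33 bases and another 20 bases before its start, E2F2 had one 42 bases before, E2F3 53 bases before and TFDP1 120 bases before (distances are to the first base of the match). The window of E2F7 held no E2F element of these exact letters, which does not show that the gene lacks one. The core TGACG was in the windows of E2F1, E2F4 and TFDP1, in the second of 2 windows of E2F3, and in those of 28.4% of all genes. The whole cAMP response element TGACGTCA (2.25% of all genes) and the AP1 element TGAGTCA (6.05%) were in no member's window. The looser TGANNTCA, which includes TGACGTCA, was in a window of TFDP2 alone, against 13.7% of all genes. The CHR element TTTGAA, bound by the MuvB core of the DREAM complex, was in windows of E2F3 and TFDP2 (18.2% of all genes). GGCGGGAA, whose last bases overlap the E2F element on the other strand, was in that of E2F3 (3.79% of all genes). Such matches describe the letters of a window and were not tested as binding sites.

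Among the 10 genes, those of the atypical repressors, of the activators E2F1 and E2F2 and of the partner TFDP1 were lower in all 4 knockdown libraries than in both control libraries, and for the other 5 the 4 knockdown libraries taken as a whole overlapped the controls. Of all 14571 genes tested, 27.3% were lower in all 4 knockdown libraries and 28.1% were higher in all 4. With siRNA 1, 4 members passed the test (edgeR's quasi-likelihood test, Benjamini-Hochberg adjusted p under 0.05 over all genes tested) and all 4 fell, where 20.3% of all genes fell and 19.9% rose. With siRNA 2, 3 members fell and none rose, where 18.2% of all genes fell and 18.5% rose. For the average of both siRNAs against EA1, 4 members fell and none rose, where 22.1% of all genes fell and 21.5% rose. The median log2FC of the members was -0.50 with siRNA 1 and -0.32 with siRNA 2, beside 0.02 and 0.00 over all genes tested. GENCODE lists processed pseudogenes of E2F3, E2F4, E2F6 and TFDP1, so reads that fit both the gene and a copy make the counts of these genes less certain. In bulk RNA, fewer cells in a given phase of the cell cycle and less RNA per cell cannot be told apart.

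**Figure D1:**
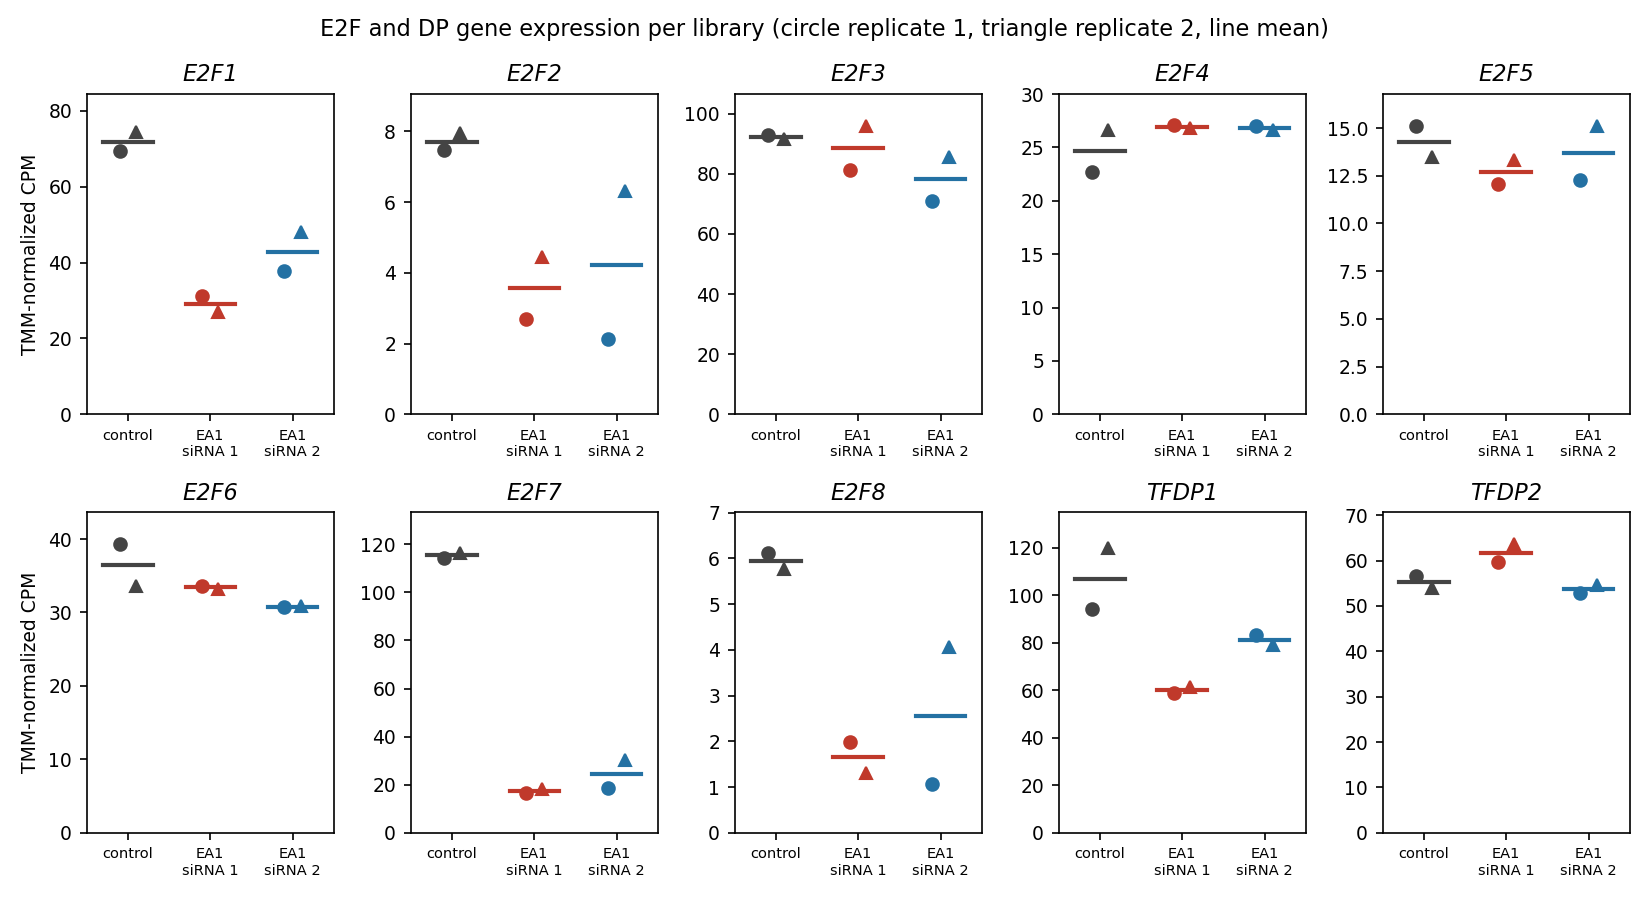
Expression of each of the 10 E2F and DP genes in TMM-normalized CPM (vertical axes, each from 0) in the 2 libraries of each group. Circles are replicate 1, triangles replicate 2 and lines the group mean. E2F7 stands at 114 and 116 CPM with control siRNA and at 16.5 to 30.3 CPM in the knockdown libraries, whereas E2F4 stays between 22.7 and 27.1 CPM.

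E2F7 (ENSG00000165891, chr12:77021248-77065569 on hg38, minus strand) had the largest change of the 10. It was at 114 and 116 CPM with control siRNA, 16.5 and 18.4 CPM with siRNA 1, and 18.7 and 30.3 CPM with siRNA 2. All 4 knockdown libraries lay far below both controls, and replicate 2 of siRNA 2 was the highest of the 4. The fall was 6.63-fold with siRNA 1 (log2FC -2.73 ± 0.18 SE, n = 2 and 2, edgeR adjusted p = 1e-06) and 4.66-fold with siRNA 2 (log2FC -2.22 ± 0.18, edgeR adjusted p = 3.98e-06).

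E2F8 (ENSG00000129173, chr11:19224063-19241620, minus strand), the other atypical repressor, had 41 and 45 counts with control siRNA, 14 and 8 with siRNA 1, and 6 and 29 with siRNA 2, which correspond to 6.12 and 5.77, 1.99 and 1.31, and 1.07 and 4.06 CPM. Every knockdown library was below both controls, but the libraries of siRNA 2 lay far apart. E2F8 fell 3.54-fold with siRNA 1 (log2FC -1.82 ± 0.54 SE, edgeR adjusted p = 0.0182). With siRNA 2 the log2FC was -1.16 ± 0.51 and did not pass (edgeR adjusted p = 0.0963), and without replicate 2 of that siRNA it was -2.49 (edgeR adjusted p = 0.00576), while without replicate 1 it was -0.57 (edgeR adjusted p = 0.417). In such fits the group is left with 1 library, which is assumed to vary like the libraries of the other groups. The call with siRNA 1 was lost when any library of control siRNA or siRNA 1 was left out (edgeR adjusted p = 0.0549 to 0.118), although the log2FC stayed between -2.16 and -1.59. E2F8 shares 7 exon bases with the antisense gene CSRP3-AS1.

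E2F1 (ENSG00000101412, chr20:33675477-33686385, minus strand), the best known activator, was at 69.3 and 74.5 CPM with control siRNA, 31.2 and 26.9 CPM with siRNA 1, and 37.7 and 48.05 CPM with siRNA 2. The 3 groups did not overlap, with siRNA 2 between the other two. E2F1 fell 2.47-fold with siRNA 1 (log2FC -1.30 ± 0.15 SE, edgeR adjusted p = 3.25e-05) and 1.67-fold with siRNA 2 (log2FC -0.74 ± 0.14, edgeR adjusted p = 0.00167).

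E2F2 (ENSG00000007968, chr1:23506438-23531233, minus strand), an activator related to E2F1, had 50 and 62 counts with control siRNA, 19 and 27 with siRNA 1, and 12 and 45 with siRNA 2. In CPM these were 7.47 and 7.95, 2.70 and 4.44, and 2.13 and 6.30. All 4 knockdown libraries were below both controls, and replicate 2 of siRNA 2 came closest to them. The log2FC was -1.12 ± 0.45 (SE) with siRNA 1 (edgeR adjusted p = 0.0696) and -0.83 ± 0.44 with siRNA 2 (edgeR adjusted p = 0.169), so that E2F2 passed with neither. With the replicate number as a block, the value with siRNA 1 was -1.14 and passed (edgeR adjusted p = 0.0234). It also passed in the fit of only the 4 libraries compared (edgeR adjusted p = 0.0169) and without replicate 1 or replicate 2 of siRNA 2 (edgeR adjusted p = 0.0115 and 0.0168). The blocked average of both siRNAs against EA1 was -1.03 and also passed (edgeR adjusted p = 0.0141), while the unblocked average of -0.98 did not (edgeR adjusted p = 0.0539). Without replicate 2 of siRNA 2, the log2FC with that siRNA, now of 1 library and with the spread of the other groups, was -1.88 and passed (edgeR adjusted p = 0.00858). Without replicate 1 it was -0.31 (edgeR adjusted p = 0.614).

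E2F3 (ENSG00000112242, chr6:20401879-20493714, plus strand), the remaining activator, was at 93.0 and 91.6 CPM with control siRNA, 81.4 and 95.8 CPM with siRNA 1, and 71.1 and 85.4 CPM with siRNA 2. The siRNA 1 libraries overlapped the controls, and both siRNA 2 libraries were below them. The log2FC was -0.06 with siRNA 1 (95% confidence interval -0.33 to 0.21) and -0.24 with siRNA 2 (-0.50 to 0.03), and neither passed (edgeR adjusted p = 0.731 and 0.161). Without replicate 2 of siRNA 2 the second value, from 1 library with the spread of the other groups, was -0.41 and passed (edgeR adjusted p = 0.0273), and without replicate 1 it was -0.13 (edgeR adjusted p = 0.507). The gene E2F3-IT1 lies inside E2F3 on the same strand, without shared exon bases, and had 12 to 35 counts.

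**Figure D2:**
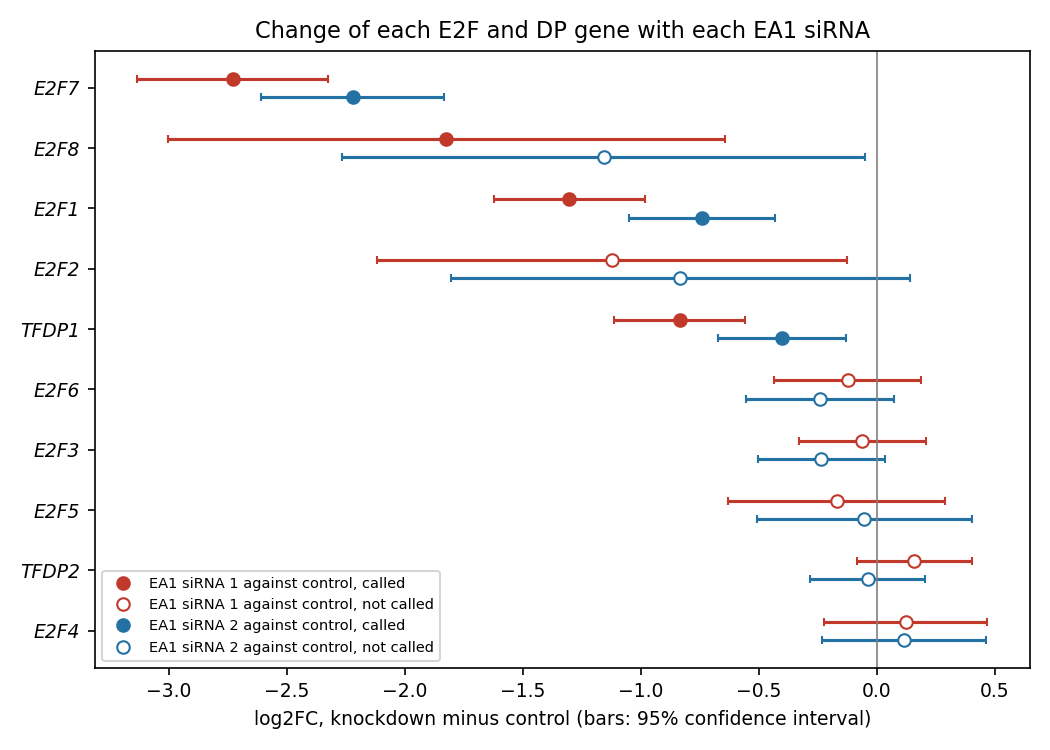
Log2FC (horizontal axis, knockdown minus control) of each gene with siRNA 1 (red) and siRNA 2 (blue), with 95% confidence intervals from edgeR. Filled points passed an adjusted p of 0.05 and open points did not. E2F7 lies at -2.73 and -2.22, and the intervals of E2F3, E2F4, E2F5, E2F6 and TFDP2 include 0 with both siRNAs.

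The repressors that work with pocket proteins did not pass the test with either siRNA. E2F4 (ENSG00000205250, chr16:67192155-67198918, plus strand), the main E2F of resting cells, was at 22.7 and 26.7 CPM with control siRNA, 27.1 and 26.8 CPM with siRNA 1, and 27.0 and 26.6 CPM with siRNA 2. Its log2FC was 0.12 with each siRNA (-0.22 to 0.47 and -0.23 to 0.46), and neither passed. E2F5, its relative, was at 15.1 and 13.5 CPM with control siRNA, 12.1 and 13.3 CPM with siRNA 1, and 12.3 and 15.1 CPM with siRNA 2. The log2FC of E2F5 was -0.17 (-0.63 to 0.29) and -0.05 (-0.51 to 0.40). E2F5 shares 997 exon bases with RBIS on the other strand, and since the use of strand in counting is not given in the sources used here, reads there may belong to either gene.

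E2F6 (ENSG00000169016, chr2:11444375-11466177, minus strand), which represses in a complex with Polycomb-related proteins, was at 39.3 and 33.6 CPM with control siRNA, 33.6 and 33.2 CPM with siRNA 1, and 30.7 and 30.8 CPM with siRNA 2. The log2FC was -0.12 (-0.43 to 0.19) with siRNA 1 and -0.24 (-0.56 to 0.07) with siRNA 2, and neither passed. The control libraries differed more between themselves than the knockdown libraries did.

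Of the DP partners, only TFDP1 passed the test. TFDP1 (ENSG00000198176, chr13:113584721-113641473, plus strand) was at 94.1 and 119.8 CPM with control siRNA, 58.9 and 61.3 CPM with siRNA 1, and 83.3 and 79.0 CPM with siRNA 2. The 3 groups did not overlap, and the control libraries lay further apart than those of either knockdown group. TFDP1 fell 1.78-fold with siRNA 1 (log2FC -0.83 ± 0.13 SE, edgeR adjusted p = 0.000301) and 1.32-fold with siRNA 2 (log2FC -0.40 ± 0.12, edgeR adjusted p = 0.0256). The call with siRNA 2 was lost without replicate 2 of control siRNA (log2FC -0.25, edgeR adjusted p = 0.217) and with DESeq2 (log2FC -0.41, adjusted p = 0.0528). TFDP2 (ENSG00000114126, chr3:141944428-142149544, minus strand) was at 56.6 and 54.0 CPM with control siRNA, 59.7 and 63.8 CPM with siRNA 1, and 52.9 and 54.6 CPM with siRNA 2. Its log2FC was 0.16 (-0.08 to 0.40) and -0.04 (-0.28 to 0.21), and neither passed.

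Levels of different genes were compared as TPM, the counts per union exon length in GENCODE scaled to the same sum in every library. With control siRNA the order was TFDP1 (103 ± 26.9 TPM, SD, n = 2), E2F1 (95.7 ± 13.8), E2F7 (65.5 ± 6.90), E2F3 (63.5 ± 5.22), E2F6 (31.8 ± 0.53), E2F4 (24.6 ± 5.08), TFDP2 (16.6 ± 1.00), E2F5 (8.46 ± 0.11), E2F8 (5.13 ± 0.27) and E2F2 (5.05 ± 0.70). The libraries of TFDP1 and E2F1, of E2F7 and E2F3, and of E2F8 and E2F2 overlapped, and those neighbours did not differ beyond their spread. With siRNA 1, E2F7 went from the third to the seventh place at 10.4 ± 0.84 TPM, behind E2F3 (64.1 ± 7.43), TFDP1 (60.3 ± 1.79), E2F1 (40.6 ± 4.16), E2F6 (30.8 ± 0.24), E2F4 (28.1 ± 0.19) and TFDP2 (19.5 ± 0.92). It was followed by E2F5 (7.94 ± 0.56), E2F2 (2.45 ± 0.85) and E2F8 (1.50 ± 0.43). The libraries of E2F3 and TFDP1 overlapped there. With siRNA 2, E2F7 also came seventh, at 14.3 ± 6.19 TPM. It stood behind TFDP1 (78.5 ± 5.20), E2F1 (58.3 ± 15.9), E2F3 (55.1 ± 12.8), E2F6 (27.5 ± 2.90), E2F4 (27.0 ± 2.53) and TFDP2 (16.4 ± 2.07), and ahead of E2F5 (8.35 ± 2.09), E2F2 (2.90 ± 2.25) and E2F8 (2.35 ± 2.09). The pairs E2F1 and E2F3, E2F6 and E2F4, TFDP2 and E2F7, and E2F2 and E2F8 overlapped in that group. These orders hold for union exon length only. The longest transcript has 2639 bases against a union of 3744 for TFDP1, and 2615 against 3596 for E2F4. For E2F3 it has 5036 against 5190 and for E2F6 3450 against 4067, so their places may differ with that length.

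The make-up of the E2F transcript pool was compared by class. The 8 E2F genes summed to 277 and 322 TPM with control siRNA, 183 and 189 TPM with siRNA 1, and 163 and 229 TPM with siRNA 2. E2F7 and E2F8 made up 23.6% and 23.5% of this sum with control siRNA, 6.36% and 6.44% with siRNA 1, and 6.66% and 9.86% with siRNA 2. The share of E2F4, E2F5 and E2F6 was 22.2% and 21.2% with control siRNA, 36.6% and 35.4% with siRNA 1, and 35.3% and 29.8% with siRNA 2, while their summed level stayed between 57.5 and 68.2 TPM in all 6 libraries. The activators E2F1, E2F2 and E2F3 together summed to 150 and 178 TPM with control siRNA, 104 and 110 TPM with siRNA 1, and 94.4 and 138 TPM with siRNA 2. They made up 54.1% and 55.3% with control siRNA and 57.1% to 60.4% in the knockdown libraries. Without length correction their mean share was 46.6% with control siRNA, 56.8% with siRNA 1 and 56.0% with siRNA 2. These shares were given no test, and in each the knockdown libraries lay on one side of both controls.

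**Figure D3:**
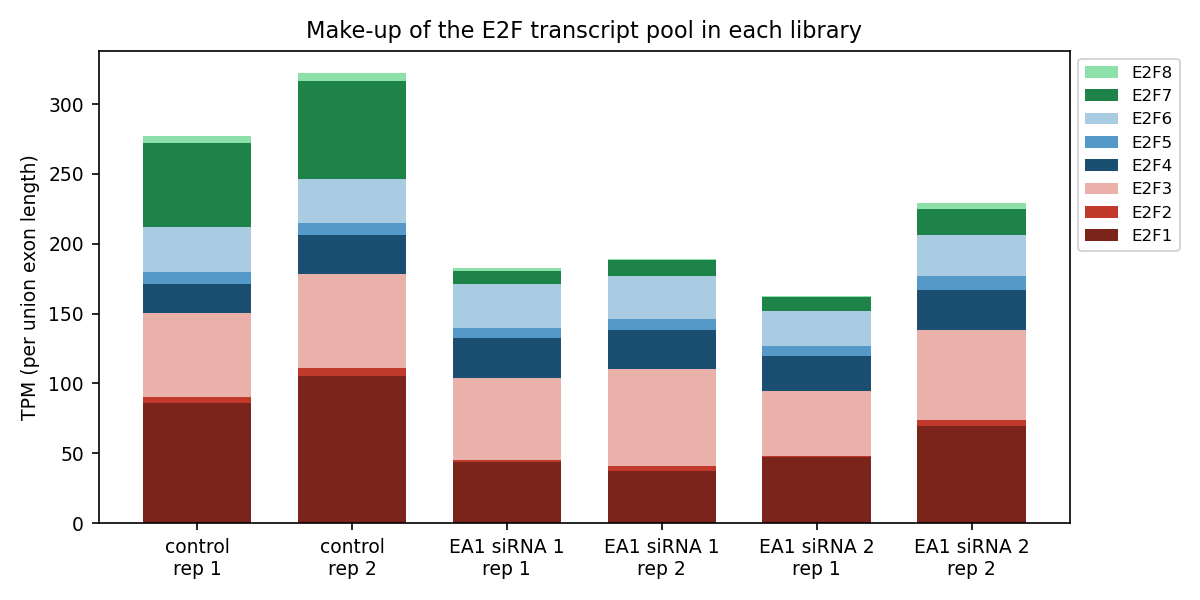
Summed TPM (vertical axis, from 0) of the 8 E2F genes in each library, stacked by gene, with activators in red, E2F4 to E2F6 in blue and the atypical E2F7 and E2F8 in green. The green part shrinks from 65.6 and 75.7 TPM with control siRNA to between 10.8 and 22.6 TPM in the knockdown libraries, the red part goes from 150 and 178 TPM to between 94.4 and 138 TPM, and the blue part stays between 57.5 and 68.2 TPM.

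Ratios of TPM were taken within each library. E2F1 was 4.08 and 3.73 times as abundant as E2F4 with control siRNA, 1.54 and 1.35 times with siRNA 1, and 1.86 and 2.41 times with siRNA 2. TFDP1 was 5.28 and 7.05 times as abundant as TFDP2 with control siRNA, 3.13 and 3.05 times with siRNA 1, and 5.001 and 4.60 times with siRNA 2. E2F7 was at 0.706 and 0.668 of the level of E2F1 with control siRNA, and at 0.212 to 0.292 of it in the knockdown libraries. Such ratios between genes depend on the exon lengths used. Without length correction, TFDP1 was at 58.9 and 61.3 CPM with siRNA 1, and TFDP2 at 59.7 and 63.8 CPM. On that scale E2F7 was at 114 and 116 CPM with control siRNA, and E2F1 at 69.3 and 74.5 CPM.

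The siRNAs against EA1 were then compared with each other. None of the 10 members passed the edgeR test of the difference, where 1.44% of all genes were lower with siRNA 1 than with siRNA 2 and 0.796% were higher. DESeq2 called 0 as well. At an unadjusted p under 0.05, 3 members, E2F1, E2F7 and TFDP1, were lower with siRNA 1, where 9.55% of all genes were lower and 7.41% higher at that threshold. The difference in log2 (siRNA 1 minus siRNA 2) was -0.56 for E2F1 (edgeR adjusted p = 0.0827), -0.51 for E2F7 (edgeR adjusted p = 0.225) and -0.43 for TFDP1 (edgeR adjusted p = 0.11). For E2F1 it was -0.36 without replicate 2 of siRNA 2 (edgeR adjusted p = 0.264) and -0.72 without replicate 1 (edgeR adjusted p = 0.0118). For E2F7 it was -0.09 without replicate 2 of siRNA 2 (edgeR adjusted p = 0.851) and -0.80 without replicate 1 (edgeR adjusted p = 0.00821), each with 1 library of siRNA 2. For E2F1 the replicate block gave -0.55 and passed (edgeR adjusted p = 0.0395). ATF1 differed by -0.09 on the same scale. The interval of the difference was wide for the low genes, from -1.34 to 0.76 for E2F2 and from -1.95 to 0.62 for E2F8.

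Replicate 2 of siRNA 2 stood apart from replicate 1 in some of these genes. It was higher for 8 of the 10 members, with a median gap of 0.28 on the log2 CPM scale, where the median gap over all genes tested was 0.0019. The gap was 1.68 for E2F8, 1.44 for E2F2, 0.69 for E2F7 and 0.35 for E2F1. Only 1.38% and 2.35% of all genes had a larger absolute gap than E2F8 and E2F2. That share was 12.3% for E2F7, 33.1% for E2F1 and 38.6% to 98.9% for the other members. The median absolute gap over all genes with siRNA 2 was 0.22. Replicate 2 was higher for 5 of the 10 members with control siRNA and for 6 with siRNA 1. The level of ATF1 was 21.7 and 22.3 CPM in the siRNA 2 libraries. Without replicate 2 of siRNA 2, 6 members passed with that siRNA, E2F2, E2F3 and E2F8 in addition to E2F1, E2F7 and TFDP1, and without replicate 1 there were 3. Both counts rest on 1 library of siRNA 2 and on the spread of the other groups.

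**Figure D4:**
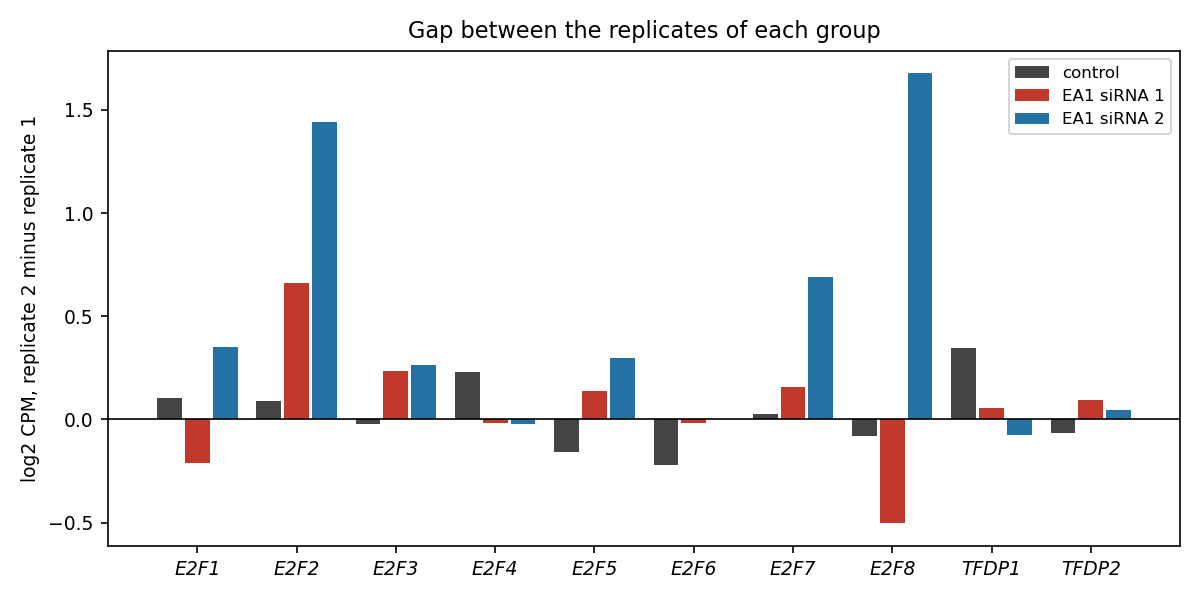
Gap between the replicates of each group (vertical axis, log2 CPM of replicate 2 minus replicate 1) for each member. With siRNA 2 (blue) the gap is 1.68 for E2F8, 1.44 for E2F2 and 0.69 for E2F7, and with control siRNA (grey) no member exceeds 0.35.

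The genes around the E2F factors came from lists chosen for their known roles, but with earlier results of these data known. The shares of all genes given beside them are therefore no test of a list. Of 11 pocket protein and DREAM genes, 10 were tested and 9 fell on average, where 22.1% of all genes fell, with a median log2FC of -0.78 beside 0.01 over all genes. LIN37 was not tested. The pocket protein RB1 was at 179 and 187 CPM with control siRNA, 107 and 111 CPM with siRNA 1, and 133 and 149 CPM with siRNA 2, an averaged log2FC of -0.56 (edgeR adjusted p = 0.000266). RBL1 fell by 0.76 on the log2 scale. RBL2, the pocket protein of the DREAM complex in resting cells, was at 40.9 and 44.9 CPM with control siRNA and 49.2 to 55.3 CPM in the knockdown libraries, which were higher in all 4, and did not pass without the replicate block (log2FC 0.28, edgeR adjusted p = 0.0565), but passed with it (0.28, edgeR adjusted p = 0.0364).

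In the same list, LIN9, LIN52, LIN54 and RBBP4, subunits of the MuvB core, had averaged log2FC of -1.26, -0.58, -0.81 and -0.35. RBBP4 fell with siRNA 2 (-0.58, edgeR adjusted p = 0.00227) but did not pass with siRNA 1 (-0.12, edgeR adjusted p = 0.42). LIN52 fell with siRNA 1 (-0.70, edgeR adjusted p = 0.0203) but did not pass with siRNA 2 (-0.45, edgeR adjusted p = 0.11). The MYB and FOXM1 factors that join MuvB later in the cycle fell too, MYBL1 by 1.17, MYBL2 by 1.28 and FOXM1 by 1.05 on the log2 scale. FOXM1 was at 247 and 246 CPM with control siRNA and 111 to 135 CPM in the knockdown libraries, and all 4 knockdown libraries were below both controls. The averaged call of RBBP4 was lost without replicate 1 of control siRNA (edgeR adjusted p = 0.157). That of LIN52 was lost without either control library or replicate 1 of siRNA 1 (edgeR adjusted p = 0.0723 to 0.092) and with DESeq2 (adjusted p = 0.0626).

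All 35 E2F target genes tested, which act in DNA replication, nucleotide supply and repair, fell on average, where 22.1% of all genes fell, with a median log2FC of -1.49 beside 0.01 over all genes. With siRNA 1 all 35 fell (median -1.76), where 20.3% of all genes fell. With siRNA 2, 32 fell (median -1.21), where 18.2% of all genes fell, and POLA1, POLA2 and BRCA1 did not pass. The averaged call of POLA1 was lost without replicate 2 of control siRNA, and that of POLA2 without either control library or replicate 1 of siRNA 1 (edgeR adjusted p = 0.0626 to 0.117). The replication licensing genes CDC6 and ORC1 and the replication factor MCM10 changed most among those that met the naming rule. CDC6 was at 137 and 150 CPM with control siRNA, 11.6 and 14.5 CPM with siRNA 1, and 13.7 and 24.5 CPM with siRNA 2, with an averaged log2FC of -3.17 (edgeR adjusted p = 9.06e-08). MCM10 and ORC1 had averaged log2FC of -2.39 and -2.07. Replicate 2 was higher than replicate 1 for 32 of the 35 targets with siRNA 2, for 27 with control siRNA and for 20 with siRNA 1.

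The 10 mitotic markers all fell with each siRNA, where 20.3% and 18.2% of all genes fell, with a median log2FC of -1.10 with siRNA 1 and -0.48 with siRNA 2. The mitotic kinase CDK1 was at 116 and 114 CPM with control siRNA and 38.9 to 53.6 CPM in the knockdown libraries (averaged log2FC -1.39), and AURKB and TOP2A had -1.27 and -0.92.

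**Figure D5:**
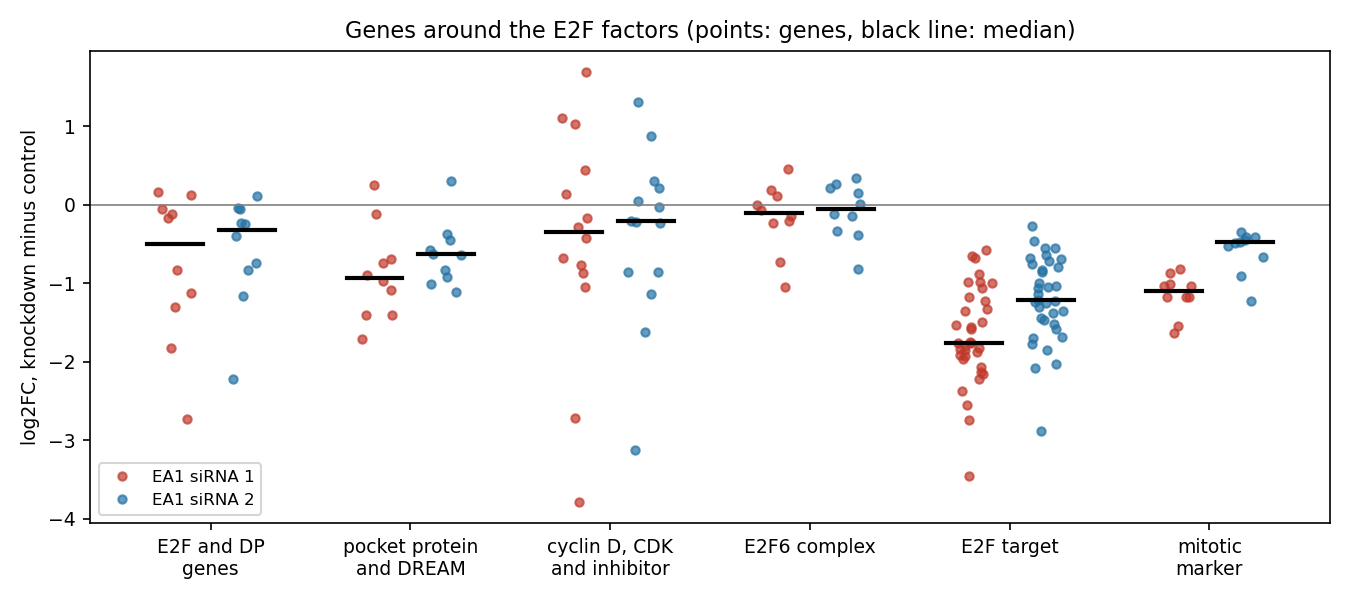
Log2FC (vertical axis, knockdown minus control) of the tested genes of each list with siRNA 1 (red) and siRNA 2 (blue), with points for genes and black lines for medians. All 35 E2F targets and all 10 mitotic markers lie below 0 with both siRNAs, and the medians of the 10 E2F6 complex genes lie at -0.10 and -0.06.

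Of the 15 genes for cyclins D and E, their kinases and CDK inhibitors, 14 were tested, of which 5 fell and 2 rose on average, where 22.1% of all genes fell and 21.5% rose (median log2FC -0.26). CCND1, the cyclin D that starts pocket protein phosphorylation, was at 1302 and 1376 CPM with control siRNA, 98.0 and 96.1 CPM with siRNA 1, and 99.3 and 205 CPM with siRNA 2 (averaged log2FC -3.46, edgeR adjusted p = 1.87e-07). CCNE2, a cyclin E and known E2F target, fell by 2.17 on the log2 scale, while CCNE1 did not pass (-0.32, edgeR adjusted p = 0.159), except without replicate 1 of siRNA 2 (-0.47, edgeR adjusted p = 0.0396). The inhibitor CDKN1C rose with siRNA 1 (1.69, edgeR adjusted p = 0.0128) but did not pass with siRNA 2 (0.30, edgeR adjusted p = 0.692). Its average passed only with at least 10 counts in every library (1.00, edgeR adjusted p = 0.0483). The inhibitor CDKN2D fell by 1.09, and the inhibitors CDKN1A and CDKN2C, named after their values were seen, by 0.86 and 0.45. With siRNA 2 alone CDKN2C did not pass (-0.21, edgeR adjusted p = 0.402), and its libraries overlapped the controls. The averaged calls of CDKN2D and CDKN2C were lost without replicate 1 of control siRNA (edgeR adjusted p = 0.167 and 0.297). That of CDKN2C was also lost without replicate 2 of siRNA 1 (edgeR adjusted p = 0.0919) and with DESeq2 (adjusted p = 0.0555).

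The CDK inhibitor CDKN1B rose from 33.3 and 30.1 CPM to 69.4 and 66.9 CPM with siRNA 1 and 60.8 and 55.7 CPM with siRNA 2 (averaged log2FC 0.99, edgeR adjusted p = 2.2e-05). CDK2, the kinase of cyclin E, was at 513 and 479 CPM with control siRNA and 960 to 1371 CPM in the knockdown libraries (averaged log2FC 1.17). CDK2 shares 89 exon bases with PMEL on the other strand, whose level went from 1394 and 1041 CPM to between 4232 and 7753 CPM. The part of PMEL reads in the count of CDK2 was not tested. CDK4 did not pass (averaged log2FC -0.15).

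Of the 10 genes of the E2F6 complex, 2 fell and 1 rose on average, where 22.1% of all genes fell and 21.5% rose, and the median log2FC was -0.08. PCGF6, its Polycomb ring finger subunit, fell by 0.93 and the heterochromatin protein gene CBX3 by 0.56 on the log2 scale. RING1, named after its values were seen, rose by 0.40 on average. With siRNA 2 alone RING1 did not pass (0.34, edgeR adjusted p = 0.0834). The call of RING1 was lost with DESeq2 (adjusted p = 0.112) and without any 1 library other than replicate 2 of siRNA 2 (edgeR adjusted p = 0.0572 to 0.118). L3MBTL2, another subunit, passed with the replicate block (log2FC -0.29, edgeR adjusted p = 0.0422) and with RLE size factors (edgeR adjusted p = 0.042), and otherwise only without replicate 2 of siRNA 2 (edgeR adjusted p = 0.0453). MGA, its DNA-binding subunit, was at 71.7 and 84.1 CPM with control siRNA and 69.9 to 78.4 CPM in the knockdown libraries.

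The 5 genes whose pattern over the 6 libraries was nearest to that of E2F7, by the Euclidean distance of centred log2 CPM among 10286 genes with a mean log2 CPM of at least 3, were DTL (distance 0.316), CRYBG1 (0.329), ARID5A (0.331), TBX20 (0.351) and FGFRL1 (0.396). DTL encodes the substrate receptor of an S phase ubiquitin ligase. Measured in the same way, E2F8 would stand at place 327, E2F1 at 587, E2F2 at 691 and TFDP1 at 1456, and the other 5 members at 3732 or later. E2F2 and E2F8 lie below that limit of log2 CPM, so counting error weighs more on their distances. The values were not scaled, so the places also reflect how far each gene fell.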

How the data were processed

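RNA-seq libraries were made with a stranded mRNA kit. The deposited files hold the authors' raw counts per gene, from BWA-MEM alignments to hg38 summarized by featureCounts 1.6.3. Annotation, strand setting and filters are not given in the sources used here. Of 18118 identifiers, 18063 matched GENCODE 44, which gave coordinates and exon lengths. The labels gave groups and replicate numbers. From the deposited counts, edgeR 4.0.16 (R 4.3.3) kept 14571 genes (filterByExpr, minimum count 10, total 15), normalized by TMM and tested 3 conditions by quasi-likelihood, with Benjamini-Hochberg adjustment. The fit was tested on simulated data.

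Members and lists were chosen with earlier results of these data known. Named genes were all members and pocket protein and DREAM genes and, of the other lists, the 3 with the largest averaged change per direction among those called with each EA1 siRNA without overlap, plus genes not called. Same-numbered libraries deviated together across genes (r = 0.13, 0.199 and 0.144 for the 3 pairs of groups), so the numbers may pair the libraries. The reported tests did not use this pairing, and the replicate number entered only as a block in an alternative fit. Alternatives were RLE size factors, no filter, a minimum of 10 counts in each library, the replicate block, each library left out, DESeq2 1.42.0, fits of 4 libraries, the 4 knockdown libraries as 1 condition, other lengths for TPM and motifs before the start only.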

Additional observations from a re-analysis of the deposited data

Results flagged for a closer look

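Set against each other (edgeR, adjusted p under 0.05 over all genes), 10 of the genes in the lists around the family passed between siRNA 1 and siRNA 2, all lower with siRNA 1, where 1.44% of all genes were lower and 0.796% higher. No member passed, but E2F1 did with the replicate block (adjusted p = 0.0395). On the log2 scale (siRNA 1 minus siRNA 2) the difference was -0.88 for MYBL2, 1 of 10 pocket protein and DREAM genes tested. Among the E2F targets, 6 of 35 passed, with -1.08 for CDC25A, -0.79 for MCM6, -0.64 for RRM1, -0.84 for RRM2, -0.58 for TYMS and -0.72 for BRCA1. Among the mitotic markers, 3 of 10 passed, with -0.77 for BUB1, -0.49 for PLK1 and -0.72 for TPX2. In the cyclin and CDK inhibitor list 0 of 14 passed, and in the E2F6 complex list 0 of 10. These genes were named because the test called them. No alternative was run for these differences, so their dependence on replicate 2 of siRNA 2 was not tested.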

How the results depend on the processing

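The counts of members called stayed within 1.5 times the reported ones except in the cases given here. A group that loses 1 library keeps 1, which is assumed to vary like the other groups. With siRNA 2 the count was 2 to 6 when 1 library was left out, and 6 without replicate 2 of siRNA 2. Between siRNA 1 and siRNA 2 it was 1 with the replicate block (E2F1) and 0 to 2 with 1 library left out, 2 without replicate 1 of siRNA 2 (E2F1 and E2F7). E2F7 kept its direction and its call with each siRNA and on average, and so did E2F1, under every alternative run. The averaged call of E2F8 was lost without either control library (edgeR adjusted p = 0.0593 and 0.0761). E2F2 was called on average with no filter (edgeR adjusted p = 0.0405), with at least 10 counts in every library (0.0408) and without replicate 2 of siRNA 1 (0.0485) or of siRNA 2 (0.002). Without length correction the atypical E2F genes made up 32.9% of the E2F sum with control siRNA, 8.94% with siRNA 1 and 11.9% with siRNA 2. With all 4 knockdown libraries as 1 condition, the calls of RBBP4 (adjusted p = 0.124), CDKN2C (0.122) and POLA2 (0.0604) were lost. Motif counts were the same before the start only. Signs changed only for values that did not pass. With DESeq2 the E2F4 difference between siRNA 1 and siRNA 2 was -0.0037. Leaving out 1 library at a time gave, between siRNA 1 and siRNA 2, values from -0.84 to 0.73 for E2F2, -0.00077 to 0.020 for E2F4, -0.26 to 0.058 for E2F5 and -1.28 to 0.65 for E2F8. It gave -0.20 to 0.055 for E2F3 with siRNA 1 and -0.25 to 0.065 for E2F5 with siRNA 2. Averaged values ranged from -0.0071 to 0.094 for TFDP2, -0.26 to 0.72 for CDK6, -0.18 to 0.023 for MGA, -0.00361 to 0.17 for RYBP and -0.19 to 0.013 for EWSR1. The cause was not tested. Alternatives for single members with each siRNA and between siRNA 1 and siRNA 2, and for the list genes, were chosen after seeing the data.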
